A study of Mus musculus with 3 samples.

Results

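Transcript levels of 10 genes that the tumour suppressor p53 switches on were read in 3 cultures of immortalized lymphatic endothelial cells (imLECs) from mouse skin. The genes were Cdkn1a, Mdm2, Ccng1, Trp53inp1, Bbc3, Fas, Sesn1, Sesn2, Zmat3 and Phlda3. They were taken as a list of named genes, with every probe set that the platform annotation gives to one of them alone. That made 20 of the 45101 probe sets and 10 of the 18194 named genes on the array.

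The cells were sorted by FACS from ImmortoMice (strain H-2Kb-tsA58), so all 3 cultures carry the temperature-sensitive tsA58 large T antigen of SV40 behind the interferon-inducible H-2Kb promoter. Growth at 33 °C with interferon-gamma was followed by 3 days at 37 °C without it, a step meant to let the T antigen be lost. One culture each was taken at passages 13, 14 and 18, and the sources used here give neither the age nor the number of the mice. The cultures form a single group, the arrays are single measurements of each passage, and no culture kept at 33 °C is part of the series, so levels before the shift were not measured. Where p-values are given they cover only the spread among these 3 cultures.

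As background, p53 is a transcription factor that is kept scarce in healthy cells by Mdm2, a ubiquitin ligase that marks it for destruction. DNA damage and other stress free p53, which then binds response elements built from a repeated half-site and switches on genes of cell cycle arrest, cell death, repair and metabolic restraint, Mdm2 among them. SV40 large T antigen binds p53 and blocks its action, which is one way in which it immortalizes cells.

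All 10 genes were lower in the passage 14 culture than in the passage 13 culture by their brightest probe set, with log2 differences from -1.38 to -0.024 (9 of 10 after quantile normalization, with Bbc3 the exception), and 8 of the 10 were higher at passage 18 than at passage 14. Of all genes above background on all 3 arrays, 51.2% were lower in the first pair and 50.9% higher in the second. Both pairs share the passage 14 culture, and these counts were added after seeing the data. Fas and Sesn1 carried the widest differences, and Cdkn1a, the best known p53 target, had probe sets that disagreed, with differences of at most 0.30 log2 units between cultures by the brightest and of up to 0.66 by the other. Expression was above background on all 3 arrays for 9 of the 10 genes. These 9 were detected, that is, their brightest probe set lay above a floor on all 3 arrays, where the floor is the 95th percentile of 43 genes restricted to other tissues (log2 5.61, 5.67 and 5.67 at passages 13, 14 and 18). Of all named genes, 49.4% were detected, and of the 20 probe sets of the list 18 lay above the floor on all arrays, against 37.8% of all probe sets. With the floor at the 99th percentile, 7 of the 10 genes were detected. By the brightest probe set, the lowest levels among the 9 were those of Fas and Sesn1 at passage 14 (log2 6.75 and 7.11).

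The start regions are shown so that matches to the p53 response element can be read beside the levels. RefSeq windows (GRCm38.p6), from 250 bases before to 50 bases after a transcript start, were at hand for 8 of the 10 genes, in 12 windows. The p53 response element was searched as a 20-letter consensus of 2 abutting half-sites of 10 letters, which reads the same on both strands. The best match of each window is in capitals below. Windows are written 5′ to 3′ on the gene's strand, and a match is a likeness of letters only. Shown are the windows of Cdkn1a and Ccng1, which hold the closest matches of the 12, the Bbc3 window with the next closest, tied with a Sesn1 window, and that of Fas, the gene with the widest spread over the cultures.
Cdkn1a, upstream start, chr17:29090729-29091028, plus strand: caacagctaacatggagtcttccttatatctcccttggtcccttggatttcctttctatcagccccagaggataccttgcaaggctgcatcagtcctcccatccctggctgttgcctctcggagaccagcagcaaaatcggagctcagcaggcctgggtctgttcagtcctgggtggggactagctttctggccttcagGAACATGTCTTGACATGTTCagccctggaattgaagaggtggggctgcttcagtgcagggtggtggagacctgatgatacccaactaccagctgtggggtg
Ccng1, chr11:40755237-40755536, minus strand: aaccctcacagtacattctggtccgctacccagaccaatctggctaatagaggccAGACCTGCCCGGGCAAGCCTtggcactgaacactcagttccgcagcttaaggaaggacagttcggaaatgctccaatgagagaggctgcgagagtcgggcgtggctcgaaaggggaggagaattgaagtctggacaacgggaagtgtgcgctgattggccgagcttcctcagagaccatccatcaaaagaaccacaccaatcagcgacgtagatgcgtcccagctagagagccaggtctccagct
Bbc3, first of its starts, chr7:16309333-16309632, plus strand: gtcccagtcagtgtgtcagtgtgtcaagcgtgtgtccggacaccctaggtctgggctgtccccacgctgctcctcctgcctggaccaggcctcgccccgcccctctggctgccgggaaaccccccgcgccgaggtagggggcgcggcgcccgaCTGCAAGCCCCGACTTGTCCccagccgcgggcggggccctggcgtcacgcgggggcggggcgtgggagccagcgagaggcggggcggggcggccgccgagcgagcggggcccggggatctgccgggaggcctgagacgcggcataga
Fas, chr19:34290409-34290708, plus strand: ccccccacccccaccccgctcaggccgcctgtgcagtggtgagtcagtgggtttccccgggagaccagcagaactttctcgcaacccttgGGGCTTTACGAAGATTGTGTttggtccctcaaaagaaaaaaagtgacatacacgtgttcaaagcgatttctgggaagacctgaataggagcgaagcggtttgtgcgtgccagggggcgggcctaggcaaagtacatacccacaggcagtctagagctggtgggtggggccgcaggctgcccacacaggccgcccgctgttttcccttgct

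The upstream Cdkn1a window holds the element at positions -51 to -32 from the start, with 1 of 20 letters off the consensus, and the Ccng1 window holds it at -195 to -176, also with 1 letter off. Of all 32851 windows of this length, 0.0883% hold a match that close. The Bbc3 match, at -97 to -78, has 3 letters off, as has the best match of a Sesn1 window, and 6.29% of all windows hold one at least that close. In the Fas window the best match has 5 letters off, which 76.6% of windows reach, so these letters are not near the consensus in that window. Exact half-sites were found in 4 of the 12 windows (Cdkn1a, Mdm2, Ccng1 and Sesn1), against 8.36% of all windows.

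Cdkn1a encodes p21, the inhibitor of cyclin-dependent kinases through which p53 halts the cell cycle. Its brightest probe set had intensities of 2585, 2452 and 3027 at passages 13, 14 and 18 (log2 11.34, 11.26 and 11.56). The SD over the cultures was 0.16 (n = 3), wider than that of 29.7% of detected genes. The other probe set gave a different order, with 2436, 1623 and 1541, highest at passage 13 and 0.66 lower on the log2 scale at passage 18 than at 13. The direction for Cdkn1a between passages 18 and 13 thus turned with the probe set.

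Mdm2, Ccng1 and Trp53inp1 act back on p53. Mdm2 had intensities of 5099, 3947 and 4395 at passages 13, 14 and 18 by its brightest probe set and 4073, 2776 and 3666 by the second, lowest at passage 14 in both. The third and dimmest Mdm2 probe set ran the other way, at 368, 480 and 428. Mdm2 is thus a gene whose probe sets disagree on the order of the cultures.

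Ccng1 encodes cyclin G1, which recruits a phosphatase to Mdm2. By its brightest probe set it had intensities of 9729, 8586 and 10560 at passages 13, 14 and 18, and its SD of 0.15 was the smallest of the list. All 3 probe sets were lowest at passage 14, by -0.18, -0.58 and -0.79 log2 units relative to passage 13. The dimmer 2 showed the larger step.

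Trp53inp1 encodes a nuclear protein that promotes p53-dependent death and arrest and also acts in autophagy. It had intensities of 1777, 1202 and 2293 at passages 13, 14 and 18, lowest at 14 and highest at 18. The second probe set gave the same order, at 653, 460 and 785. Between passages 18 and 14 the log2 difference was 0.93 by the first and 0.77 by the second, and 7.42% of detected genes had a larger one than the first.

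Fas and Bbc3 serve cell death. Fas, the death receptor at the cell surface, had intensities of 279, 107 and 699 at passages 13, 14 and 18 (log2 8.12, 6.75 and 9.45), read by a single probe set. The passage 18 culture had 6.51 times the signal of passage 14 and 2.51 times that of passage 13. Only 0.289% of detected genes had a larger difference between passages 18 and 14, and its SD of 1.35 over the cultures exceeded that of 99.4% of detected genes.

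Bbc3 encodes Puma, a BH3-only protein that triggers the mitochondrial path of apoptosis. Its single probe set was near the floor, at log2 5.86, 5.83 and 5.43 at passages 13, 14 and 18, and lay below it at passage 18, so that its detection turned on the settings: all 10 genes were detected when the 90th percentile set the floor, and also when the passage 18 culture was left out. The last value therefore cannot be told from background. The difference of -0.40 between passages 18 and 14 is between a value near background and one below it.

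Sesn1 and Sesn2 encode sestrins, stress proteins that restrain the growth kinase mTORC1. Sesn1 had intensities of 260, 138.5 and 637 at passages 13, 14 and 18, so that passage 18 had 4.60 times the signal of passage 14 and 2.45 times that of passage 13. A second Sesn1 probe set had 237, 153 and 618. Both carry the suffix _s_at, which marks probes shared among transcripts. The third, without it, had log2 levels of 6.66, 6.20 and 7.99, the same order, and the fourth lay below the floor on all 3 arrays. Sesn1 thus stood beside Fas, with 0.590% of detected genes showing a larger difference between passages 18 and 14.

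Sesn2 had intensities of 239, 160 and 242 at passages 13, 14 and 18, so that passages 18 and 13 differed by 0.013 on the log2 scale. Its second probe set had 217, 115 and 170. Both were lowest at passage 14, by -0.58 and -0.91 log2 units relative to passage 13, whereas Sesn1 was 1.29 log2 units higher at passage 18 than at passage 13.

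Zmat3 and Phlda3 were each read by 1 probe set. Zmat3, an RNA-binding zinc finger protein that alters splicing, had intensities of 1006, 907 and 1368 at passages 13, 14 and 18. Phlda3, which competes with the kinase Akt for membrane lipids, had 1084, 1030 and 831. Phlda3 and Bbc3 were the 2 genes of the list with their lowest value at passage 18. The other 8 were lowest at passage 14, as were 38.8% of detected genes, and 7 of the 10 were also highest at passage 18 (25.5% of detected genes).

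**Figure D1:**
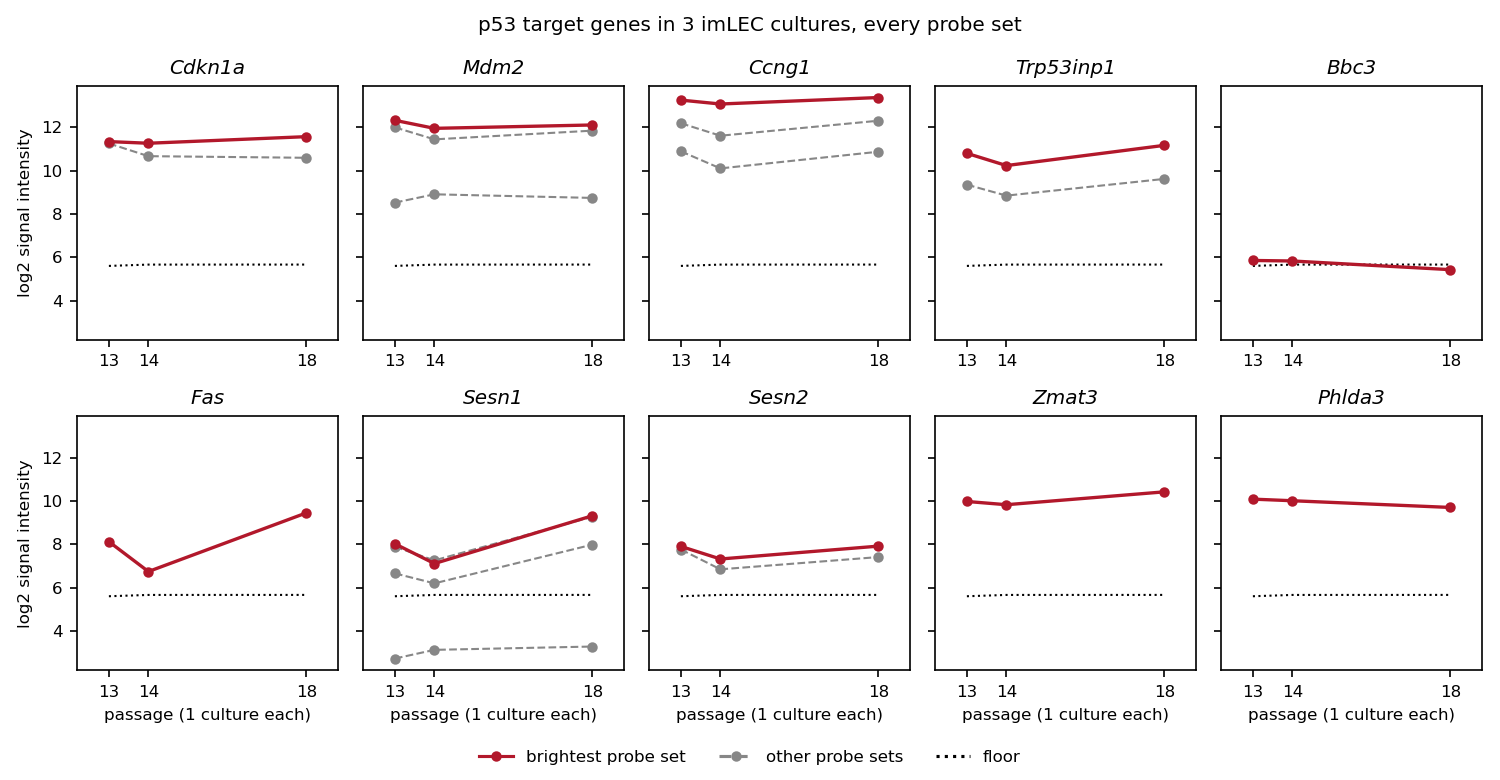
Log2 signal intensity (vertical axis) of every probe set of the 10 genes against passage number (horizontal axis, 1 culture each), with the brightest probe set in red, others in grey and the floor dotted. Fas and Sesn1 dip at passage 14 and peak at passage 18, while Bbc3 runs along the floor.

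The differences between cultures were set beside those of all 8985 detected genes. There is 1 culture per passage, so these differences have no test. The comparisons of passage 14 with 13 and of passage 18 with 14 share the passage 14 culture, so a low value there enters both. Between passages 14 and 13, all 10 genes were lower at 14, where 51.2% of detected genes were lower, and the median log2 difference was -0.27, against -0.012 in detected genes. It was -0.54 when the probe sets of each gene were summarised by their median. Fas was the 1 member at least 2-fold lower, a size reached by 2.95% of detected genes, and none was at least 2-fold higher (1.94% of detected genes).

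Between passages 18 and 14, 8 of the 10 genes were higher at 18, where 50.9% of detected genes were higher. The median difference was 0.45, against 0.0096 in detected genes. Fas and Sesn1 were at least 2-fold higher, as were 6.36% of detected genes, and none was at least 2-fold lower (5.18%). The remaining 6 of the 8 lay between 0.16 and 0.93.

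Between passages 18 and 13 the genes were split, with 7 higher and 3 lower at 18, or 6 higher with arrays centred on their medians, where Sesn2 crossed (48.3% of detected genes were higher). Fas and Sesn1 were at least 2-fold higher, as were 2.13% of detected genes. Mdm2, Bbc3 and Phlda3 were lower, none of them 2-fold (2.01%). The median difference was 0.17 and turned to -0.018 when the probe sets of each gene were summarised by their median, so no direction is given for the list between these passages.

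**Figure D2:**
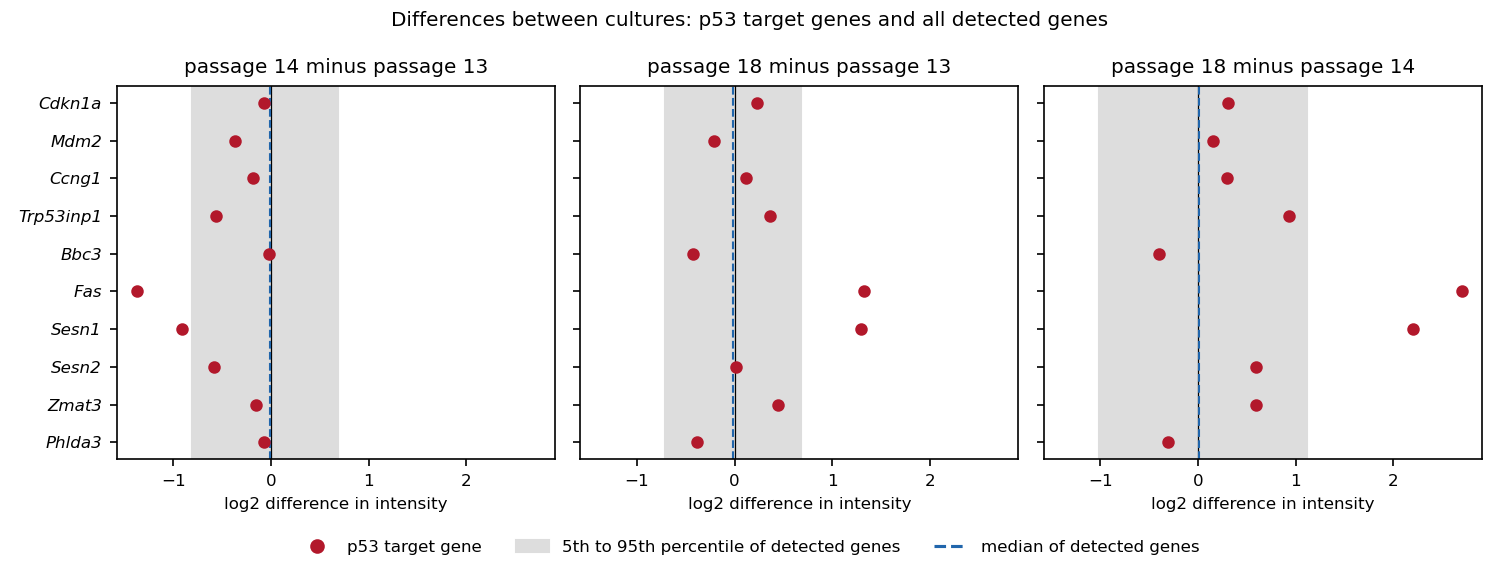
Log2 difference in intensity (horizontal axis) of each of the 10 genes by its brightest probe set (red points) in the 3 pairs of cultures, with the 5th to 95th percentile of the 8985 detected genes in grey and their median dashed. Fas lies outside the grey band in all 3 pairs, as does Sesn1, whose difference between passages 14 and 13 was -0.91; the other 8 genes lie inside it.

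By probe set the order was alike. Of the 18 probe sets above the floor, 17 were lower at passage 14 than at 13, and the exception was the third Mdm2 probe set. Of the 18, 15 were lowest at passage 14, as were 37% of all probe sets above the floor. The order of 14 lowest and 18 highest was seen in 11 of 18, against 24.1%. Probe sets of 1 gene share their transcript and are not independent.

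The trend over passage number was fitted with limma across the 9578 genes whose mean level lay above the mean floor. No member passed (0 of 10), and neither did any other gene (0%). Unadjusted p-values under 0.05 were seen for 339 genes (3.54%), of which 0 were members. The slope was 0.38 ± 0.19 log2 units per passage for Fas and 0.34 ± 0.14 for Sesn1 (standard errors), with a limma adjusted p of 0.890 for both. The slopes were positive in 7 of the 10 genes, where 49.1% of tested genes had a positive slope, and the slopes other than those of Fas and Sesn1 lay between -0.089 and 0.12. Without the passage 18 culture, all 7 positive slopes turned negative. The fit has 1 residual degree of freedom per gene. In simulated data it called 6% of genes given a true slope of 0.5, which is steeper than any slope of the 10 genes. The same run held genes with true slopes of 1 and 2, whose small p-values ease the adjustment. The 6% may thus overstate the power in the real data. The absence of calls therefore cannot tell a slope of such size from none.

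Further p53 targets were taken from a list of 40. Of 36 measured, 25 were lower at passage 14 than at 13 (median log2 difference -0.17), and 32 were higher at passage 18 than at 14 (median 0.39). Among all detected genes, 51.2% were lower in the first pair and 50.9% higher in the second. None of 34 tested passed the trend (0 at an unadjusted p under 0.05). Dgka, a diacylglycerol kinase, had log2 levels of 8.05, 6.51 and 9.40 at passages 13, 14 and 18, and Rprm (Reprimo), a mediator of arrest in G2, had 9.11, 7.06 and 9.49. These 2 had the widest range of the list, and both were lowest at passage 14.

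Other genes from the head of the same list had narrower ranges than Dgka and Rprm. Gadd45a, a growth arrest and DNA damage protein, had log2 levels of 8.71, 8.89 and 8.97 at passages 13, 14 and 18. Btg2, an antiproliferative factor, had 8.89, 8.45 and 9.02, and the kinase Plk2 had 10.55, 10.41 and 10.79. Plk3 was just above the floor, between 5.64 and 5.73, and Sfn was below it on all arrays. The further targets, like the 10 genes, held a few with several-fold differences and many with smaller ones.

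Of 18 measured p53 relatives and regulators, 10 were lower and 8 higher at passage 14 than at 13 (median difference -0.026). At passage 18, 14 were higher and 4 lower than at passage 13 (median 0.16), and 10 were higher and 8 lower than at passage 14 (median 0.026). Among all detected genes, 51.2% were lower at passage 14 than at 13. At passage 18, 48.3% of them were higher than at 13 and 50.9% higher than at 14. The p53 relatives Trp63 and Trp73 were below the floor on all arrays. Mdm4, the partner of Mdm2 that also holds p53 in check, had log2 levels of 8.25, 8.92 and 8.07 at passages 13, 14 and 18, the reverse of most targets. Cdkn2a, the locus of the Mdm2 inhibitor Arf, had 7.59, 8.27 and 8.04.

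The damage kinases differed among themselves. Atm had log2 levels of 8.49, 9.10 and 8.53 at passages 13, 14 and 18, and Chek1 had 7.34, 8.52 and 7.51, both highest at passage 14, whereas Atr was level, between 6.96 and 7.04. Hipk2, a kinase that phosphorylates p53 to favour death, had 7.54, 6.35 and 8.36, the same order as Fas. Hipk2 and Chek1 had the widest range among the detected regulators. None of the 16 regulators tested passed the trend (0 at an unadjusted p under 0.05).

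Cell cycle genes that p53 represses through p21 and the DREAM complex mostly had differences opposite in sign to those of the 10 genes. Of 27 measured, 26 had their higher value at passage 14 when set against passage 13 (median difference 1.17), and 25 were lower at passage 18 than at 14 (median -1.60). Among all detected genes, 51.2% were lower at passage 14 than at 13, and 50.9% were higher at passage 18 than at 14. Between passages 18 and 13, 21 of the 27 were lower and 6 higher at 18 (median -0.47), where 48.3% of detected genes were higher. Mki67 had log2 levels of 7.78, 9.35 and 7.30 at passages 13, 14 and 18, Ccnb2 had 8.32, 10.08 and 7.47, and Tk1 had 7.04, 8.56 and 5.68. Cdk1, Ccna2, Top2a and Plk1 were also highest at passage 14, by 1.08 to 1.64 over passage 13. Cdkn1a itself differed between passages 14 and 13 by -0.076 by its brightest probe set and by -0.59 by the other, so the size of its difference depends on the probe set. None of the 26 tested passed the trend (0 at an unadjusted p under 0.05).

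**Figure D3:**
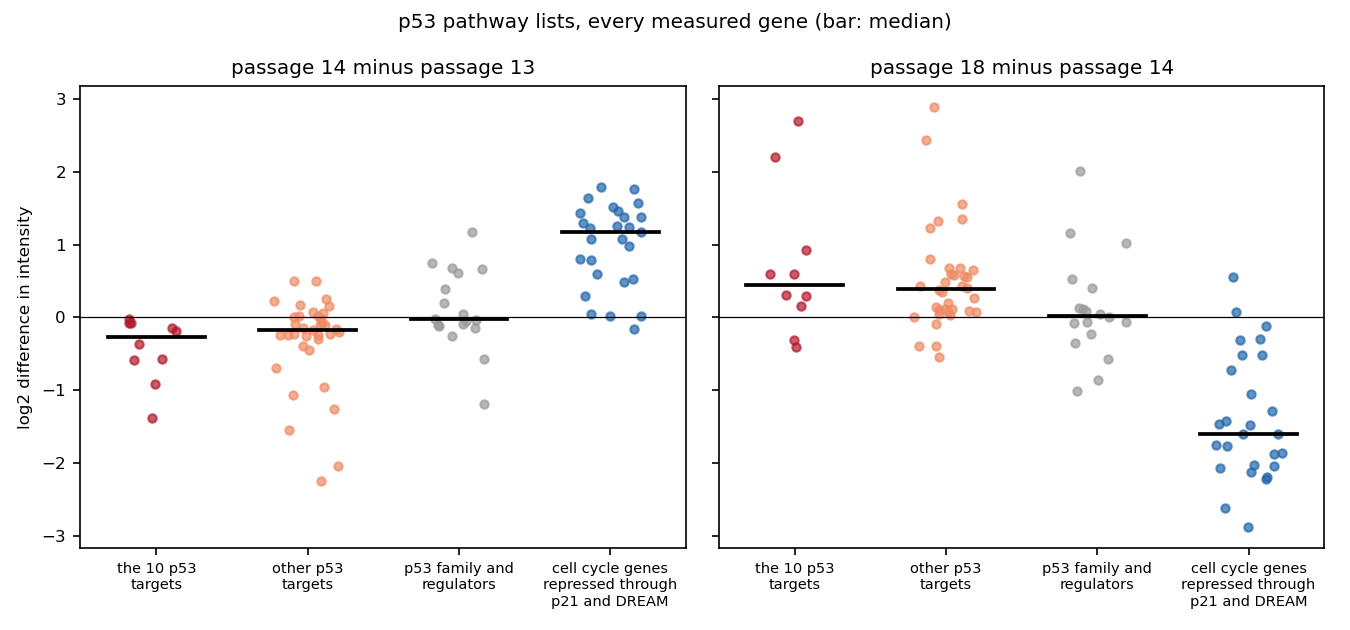
Log2 difference in intensity (vertical axis) of every measured gene of 4 lists, passage 14 minus 13 on the left and passage 18 minus 14 on the right, with a bar at each median. The 10 p53 targets have medians of -0.27 and 0.45, the further targets -0.17 and 0.39, the regulators -0.026 and 0.026, and the cell cycle genes 1.17 and -1.60.

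The genes nearest to Fas in pattern were sought among detected genes by the Euclidean distance of the 3 log2 levels, each taken relative to the gene's own mean. They were Fhdc1 at 0.04, the collagen receptor Ddr1 at 0.11, Dgka at 0.15, Vasn at 0.16 and the protease gene Adamts5 at 0.17. With 3 cultures, many genes can share such a pattern.

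Other properties of the cultures differed along with Fas and Sesn1. The 3′ to 5′ signal ratio of the Gapdh control, a measure of RNA or cDNA integrity, was 8.59, 7.10 and 19.4 at passages 13, 14 and 18, and that of Actb was 1.18, 1.20 and 1.42. Of the endothelial markers, 10 of 10 pan-endothelial genes were detected (Cdh5, Pecam1 and Erg among them) and 7 of 8 lymphatic ones (Lyve1 and Pdpn among them), while Prox1, the defining lymphatic factor, was above the floor at passage 13 alone. The summed intensities at passages 13, 14 and 18 were 19278, 18454 and 13054 for the pan-endothelial list and 11978, 10377 and 8040 for the lymphatic one. A sum leans on the brightest probe sets: of the 10 pan-endothelial genes, 7 were higher at passage 14 than at 13 (median log2 difference 0.15), and all 10 were lower at passage 18 than at 13 (median -0.63). The lymphatic genes were split, with 2 higher and 6 lower at passage 14 than at 13, and as many at passage 18 against 13. The shares among all detected genes were 51.2% lower at passage 14 than at 13 and 48.3% higher at passage 18 than at 13. Lyve1 had log2 levels of 10.43, 11.52 and 7.35, while Pdpn had 12.17, 10.92 and 11.86. The summed intensity of 6 fibroblast markers was 609, 357 and 2403 at passages 13, 14 and 18, with 2 of 6 detected and Pdgfra below the floor, and that of 6 mural markers was 1640, 462 and 5576, with 2 of 6 detected and Rgs5 below the floor. Acta2 alone made up 1467, 308 and 5289 of the mural sums. The other detected mural gene, Pdgfrb, had log2 levels of 6.28, 6.04 and 7.69. At passage 18, 2 of the 6 mural genes were lower than at 13, Cspg4 and Des, both below the floor on all 3 arrays. Col1a1 had log2 levels of 8.04, 6.54 and 10.26, and Acta2, by a probe set with the suffix _s_at, had 10.52, 8.27 and 12.37, the order of Fas. Col1a2, above the floor on 2 arrays, had 6.65, 3.99 and 8.31, the same order. The other detected fibroblast gene, Col3a1, had 7.63, 7.67 and 9.60 and was not lowest at passage 14. Of the 6 fibroblast genes, 3 were higher and 3 lower at passage 14 than at 13, and 6 were higher at passage 18 than at 13. Of 5 measured leukocyte markers 1 was detected (Cd68), with Ptprc and Itgam below the floor and sums of 155, 271 and 82.6. Of 5 keratinocyte markers 1 was detected (Krt10), with Krt5 above the floor on 2 arrays, Krt14 below it and sums of 227, 168 and 219. The part of any of these in the differences of the p53 targets was not tested. In bulk cultures, fewer cells that express a gene and less RNA per cell cannot be told apart.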

How the data were processed

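RNA of 3 cultures was amplified in 1 round and hybridised to 1-colour arrays, per the labels' protocols. The deposited table holds 1 linear signal intensity per probe set and array, and MAS5 is the tool named, with no role, per the submitters' processing notes. What else the authors did is not given in the sources used here. Medians of the deposited intensities were 25.7, 26.0 and 26.3, so no further normalization was made, and all 3 columns were used. Of 45101 probe sets, 34958 have 1 gene, 932 several (given no name) and 9211 none in the annotation. Symbols were updated through Entrez identifiers to RefSeq (GRCm38.p6), which matched 34754. Intensities were taken to log2, and each gene was represented by its brightest probe set. Levels of different genes were not compared. Of the 43 floor genes, Apoa2, Prm1 and Camk2a passed the floor. The trend used limma 3.58.1 in R 4.3.3 (lmFit, eBayes with an intensity trend, Benjamini-Hochberg adjustment, threshold 0.05), and was tested on simulated data. There it called 0% of changed genes at a true slope of 0.25 log2 units per passage, 6% at 0.5, 84% at 1 and 98% at 2. These were 50 genes per slope in 1 run, which also made 5 false calls. Precision is limited by the number of arrays. The genes, lists and tests were chosen with earlier results of these data known. Genes were named by rule: all 10 targets, the first 6 measured and the 2 widest detected genes of each pathway list, the first 3 of each cell type list, and the 5 nearest to Fas. Col3a1, Cspg4, Des and the targets under Other observations were named outside this rule. Alternatives changed the floor, the probe set choice, the scaling, the value added before the log, the filter, the contrast and the cultures.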

Additional observations from a re-analysis of the deposited data

How the results depend on the processing

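No paired analysis was possible because the cultures form 1 group with no shared replicate numbers. Detected members numbered 9, 9 to 10 when a culture was left out, 10 with the floor at the 90th percentile and 7 at the 99th, and their probe sets above the floor 18, 19 and 13. No member was called in the trend under any alternative, with adjusted p from 0.485 to 0.994. Counts past 2-fold did not differ under the alternatives for probe set, scaling and added value. The counts of genes higher or lower between passages, the 10 lower at passage 14 included, were added after seeing the data. In these counts, quantile normalization left 1 gene higher at passage 14 than at 13. Summarising each gene by its median probe set gave 5 genes lower at passage 18 than at 13, against 3, and the cause was not tested. That choice also turned the slopes of Cdkn1a (-0.023) and Mdm2 (0.0070), whose probe sets disagree; the other 68 of 70 slopes kept their sign under the alternatives for probe set, scaling, filter and added value. Passage 14 against the mean of 13 and 18, a different contrast, gave values opposite in sign to the slope for Fas (-2.04), Sesn1 (-1.56), Trp53inp1 (-0.75), Sesn2 (-0.59), Zmat3 (-0.37), Ccng1 (-0.24), Cdkn1a (-0.19), Bbc3 (0.19) and Phlda3 (0.12). Without the passage 18 culture all 7 positive slopes turned negative (Fas -1.38, Sesn1 -0.91, Sesn2 -0.58, Trp53inp1 -0.56, Ccng1 -0.18, Zmat3 -0.15 and Cdkn1a -0.076), so their sign rests on that culture, with no test possible on 2 arrays. Without the passage 13 culture the slope of Mdm2 turned positive.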

Other observations

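Other p53 targets of the list, chosen here after their values were seen, add further values. Perp, a membrane protein of junctions and apoptosis, had log2 levels of 9.58, 7.33 and 8.65 at passages 13, 14 and 18. Pmaip1 (Noxa), a BH3-only death gene, had 9.83, 8.76 and 10.32, and Dram1, a lysosomal regulator of autophagy, had 8.31, 7.62 and 8.98. All 3 were lowest at passage 14. Of other death genes in the list, Aen had 11.18, 10.97 and 10.88, Ei24 had 11.92, 11.93 and 12.08, and Pidd1, highest at passage 14, had 6.87, 7.10 and 6.56. Of the DNA repair genes, Ddb2 had 8.13, 8.15 and 8.24, Xpc had 6.65, 6.41 and 6.84, and Ercc5 had 9.25, 9.02 and 9.81.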
